A study of Mus musculus with 3 samples.

Results

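The step from day 1 to day 2 of a conditional Oct3/4 knockout was measured in embryonic stem (ES) cells of the mouse. ES cells are grown from the early embryo, and Pou5f1 is the gene of Oct3/4. The comparison sets 2 arrays of the 3 in the series against each other, the day 2 array and the day 1 array, over all 45037 probe sets other than the hybridisation controls. A probe set is a group of short probes designed against the same transcript, and its signal is an array intensity on a linear scale. Every array came from cells of the same conditional Pou5f1 knockout, and the day of the knockout is the only difference that the labels give. The labels name no strain or clone, and the sources used here do not say how or by which agent the knockout was induced. No parallel culture that kept Oct3/4 was sampled at day 1 or day 2, so time in culture and the absence of Oct3/4 cannot be told apart. Per the series' design text, conditional knockout cells were made because cells without Oct3/4 from the start are not kept in culture. The day 0 array was not used to choose any gene. Its signals are printed beside the others, and the earlier step shares the day 1 array with this one.

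Oct3/4 is a POU-domain transcription factor that binds DNA with Sox2 and keeps ES cells pluripotent, which means able to form all tissues of the embryo. In the blastocyst it is restricted to the inner cell mass, while the surrounding trophectoderm, which gives rise to the placenta, switches it off. Mouse ES cells without Oct3/4 are known to take on features of trophectoderm, a lineage set by factors such as Cdx2, Gata3, Tfap2c and Eomes. FGF4 from pluripotent cells acts through the kinase ERK on the cells around it, and Dusp6, Sprouty and Etv genes are its usual feedback targets.

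Pou5f1 itself had a day 0 signal of 2400.3, a day 1 signal of 40.8 and a day 2 signal of 15.5. At both later days it lay below 57.6, the constant that was added to each signal before log2 was taken, and so it has no measured difference for this step. The step therefore begins where the Pou5f1 signal was already near background. Each difference below is log2 of day 2 over day 1 after that addition, and folds are on the same scale, so that changes of dim genes come out too small. With 1 array on each side nothing could be tested, and "higher" or "lower" in a count means by at least 2-fold. The only error that could be had is that between kept probe sets of a gene, whose pooled SD was 0.30 in log2. It leaves out the variation between cultures and hybridisations.

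Of 12683 measured genes, 271 were at least 2-fold higher at day 2, which is 2.14%, and 322 were at least 2-fold lower, which is 2.54%. Each count for a gene list below is to be read against these shares. The lists were chosen with earlier results of these data known, so their counts are descriptions only. At 4-fold or more there were 26 higher and 31 lower genes, and at 8-fold or more 4 higher and 2 lower. The median difference of all genes was 0.00, with quartiles at −0.24 and 0.23. Median signals were 92.5 at day 1 and 87.6 at day 2, and the log2 signals of the arrays correlated with r = 0.974 across probe sets, which are not independent replicates. Dim genes passed 2-fold more often. Among genes with mean signals up to 154.1 2.65% were higher and 3.50% lower, against 1.58% and 1.42% in those from 1456 upward. Among higher genes with several kept probe sets, 93 of 113 had all sets on the same side of 0, and 34 had all sets past 2-fold. Among lower genes the corresponding numbers were 93 and 38 of 115. With a doubled constant the counts were 157 higher and 179 lower.

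**Figure D1:**
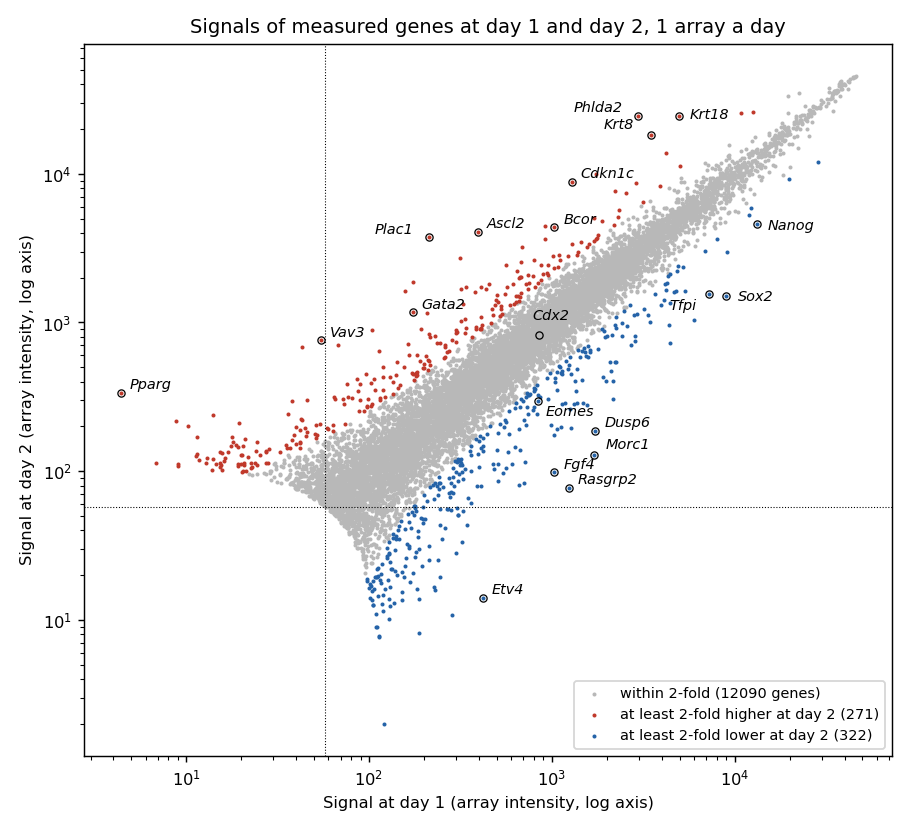
Signal at day 2 (vertical, log axis) against signal at day 1 (horizontal, log axis) for the 12683 measured genes, 1 point a gene and 1 array a day, with dotted lines at the added constant of 57.6. Red points are the 271 genes at least 2-fold higher and blue points the 322 at least 2-fold lower; Plac1 (213.7 to 3740.1) lies far above the diagonal, Rasgrp2 (1241 to 76.9) far below it, and Cdx2 (856 to 828) on it.

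Markers of several lineages were read beside the labelled cell type. They were chosen with earlier results of these data known, so their counts and sums are descriptions only. The 7 measured ES cell markers were all at least 2-fold lower at day 2, and the summed signal of the 8 on the list went from 68091 at day 1 to 23248 at day 2. All were still clearly above the constant except Pou5f1, with Dppa5a at 11927 and Nanog at 4585 on day 2. The 10 trophectoderm markers summed to 16181 at day 1 and 60420.4 at day 2, with 5 higher and 1 lower. The keratin genes Krt8 (3475 to 18359) and Krt18 (4938 to 24611) carry most of that sum, while Cdx2, Elf5 and Hand1 stayed within 2-fold and Eomes was lower. Of 8 markers of differentiated trophoblast, Tpbpa (50.7 and 39.1) and Ctsq (16.3 and 7.9) were below the constant on both days, and the others were not analysed here. The 5 measured primitive endoderm markers of 7 all stayed within 2-fold, with sums of 1217 and 1384 for the whole list. Sums were 293 and 149 for mesoderm markers, 733 and 338 for neural and epiblast markers, and 605 and 681 for blood markers. Fibroblast markers, listed for feeder cells, gave sums of 679 and 467, though which cells gave these signals was not tested. Thy1, at 274.6 and 89.3 (−1.18), was the 1 member past 2-fold. Pdgfrb (144 and 123) and Col1a2 (102 and 127) stayed within 2-fold, and the mean signals of the other 5, Col1a1 (33.8 and 26.3) and Col3a1 (29.9 and 2.50) among them, were under the constant. In a bulk sample, fewer cells of a type and less RNA per cell cannot be told apart, and this holds for every gene below.

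Several genes of the placenta and of trophoblast, the cells of trophectoderm origin, were among the higher genes. Of 37 measured placental and trophoblast genes 15 were higher (40.5%) and 1 lower (2.70%), with a median of 0.42. Over all measured genes 2.14% were higher and 2.54% lower. The list was chosen with earlier results of these data known, so its share is a description only. Plac1, an X-linked gene named for its placental expression, had signals of 166, 213.7 and 3740.1 on days 0, 1 and 2. Its difference of 3.81, or 14-fold, was the highest of any gene with both signals above the constant. Phlda2, an imprinted gene that restrains placental growth, stood at 2354, 2979 and 24653 on the 3 days, a difference of 3.02. Both genes were near their day 0 signal at day 1 and far above it at day 2. Cdkn1c, the imprinted gene of the cell cycle inhibitor p57, went the same way, with 1169.7, 1286 and 8814 and a difference of 2.72. Ldoc1, a retrotransposon-derived placental gene, had 133, 158 and 1620.1 (2.96).

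The upstream sequences of 3 higher genes are shown because a motif was found in each, and come from RefSeq promoters of the mouse assembly GRCm38.p6. Each run covers 250 bases before to 50 bases after the annotated start and reads 5′ to 3′ along the gene. Capitals mark matches, on either strand, to 1 of 7 motifs searched. They are the POU octamer ATGCAAAT, the GATA motif AGATAA, the TEAD motif GGAATG, the AP-1 motif TGANTCA, the AP-2 motif GCCNNNGGC, the ETS motif CCGGAAG and the TATA box TATAAA. Plac1 has an upstream and a downstream start, and the upstream one, at chrX:53240061-53240360 on the minus strand, holds a reversed GATA motif at base 5, while the downstream one holds no match.
Plac1: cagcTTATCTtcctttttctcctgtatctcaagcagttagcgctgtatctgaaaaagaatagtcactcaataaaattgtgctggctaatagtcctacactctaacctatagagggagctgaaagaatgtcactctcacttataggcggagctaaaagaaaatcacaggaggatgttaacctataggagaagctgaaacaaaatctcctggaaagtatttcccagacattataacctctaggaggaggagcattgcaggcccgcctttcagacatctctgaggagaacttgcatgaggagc
The promoter of Krt8, at chr15:102004293-102004592 on the minus strand, holds a GATA motif at base 12 and overlapping TATA matches of both strands at bases 248 and 250.
Krt8: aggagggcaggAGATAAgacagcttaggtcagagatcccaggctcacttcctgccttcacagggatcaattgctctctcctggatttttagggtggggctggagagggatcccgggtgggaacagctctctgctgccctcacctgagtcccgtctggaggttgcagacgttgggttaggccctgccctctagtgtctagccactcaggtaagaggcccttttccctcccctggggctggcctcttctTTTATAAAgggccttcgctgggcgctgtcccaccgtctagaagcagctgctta
The promoter of Krt18, its keratin partner, lies near it at chr15:102027966-102028265 on the plus strand and holds an AP-2 match at base 168.
Krt18: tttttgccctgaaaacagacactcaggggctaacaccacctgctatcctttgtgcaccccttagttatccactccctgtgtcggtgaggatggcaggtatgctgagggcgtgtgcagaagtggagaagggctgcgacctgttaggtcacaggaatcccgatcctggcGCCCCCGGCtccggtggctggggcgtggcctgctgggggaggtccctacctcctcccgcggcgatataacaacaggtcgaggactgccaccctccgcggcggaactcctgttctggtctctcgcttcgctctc

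A promoter was matched to 208 of the 271 higher genes, 256 of the 322 lower genes and 10263 measured genes. AP-2 matches were in 37.5% of the higher genes, 29.7% of the lower and 28.9% of all measured genes. TEAD matches were in 18.8%, 14.1% and 14.3%, and TATA matches in 17.3%, 13.7% and 9.04%. GATA matches were in 7.69%, 8.20% and 7.74%, and AP-1 matches in 7.69%, 7.03% and 6.20%. ETS matches were in 9.13% of the higher and 8.20% of the lower genes against 19.2% of all measured genes. The octamer was in 2.40%, 2.73% and 1.51%. Over all 32851 promoters of this length in the table the shares were 16.6% for AP-2, 14.7% for TEAD, 13.6% for TATA, 11.2% for GATA, 7.81% for AP-1, 8.86% for ETS and 1.74% for the octamer. The promoters of Ascl2, Sox2, Dusp6 and Fgf4 in the table held none of the motifs. These are counts of letters in a window and were not tested.

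Other placental genes followed with smaller differences. Rhox6 and Rhox9, X-linked homeobox genes of a cluster active in placenta and gonads, were at 4226 and 2897 on day 1 and at 13726 and 8612 on day 2 (1.69 and 1.55). The placental kinase gene Nrk went from 913 to 4465 (2.22), and its 3 probe sets gave 1.20 to 2.22. Vav3 went from 54.4, just under the constant, to 758 (2.86; 3 sets from 1.95). Peg10, a retrotransposon-derived gene needed for the placenta, had 786 and 2062 (1.33), and the growth factor gene Igf2 had 10890 and 25738 (1.24, and 1.46 by its other set). Igf2 differs from Plac1 and Phlda2 in its day 0 signal of 2682, which lies well under its day 1 signal. Lgals3 and Plet1, both of trophoblast and other epithelia, were lowest at day 1, with 2788, 804 and 2626 for Lgals3 (1.64). The lower gene of the list was Tfpi, the inhibitor of the tissue factor clotting pathway, at 5875, 7284 and 1558 (−2.18; 4 sets up to −1.06). Sct (1.06), Fthl17a (1.11) and Plet1 (1.29) were under 2-fold in at least 1 alternative, Sct at 0.996 and Fthl17a at 0.95 with a doubled constant and Plet1 at 0.58 without the suffixed probe sets, those that end in _x_at, _s_at or _a_at and can share sequence with other transcripts.

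Transcription factors of trophectoderm ranged from genes that were much higher at day 2 to genes that were lower. Of 32 measured members 8 were higher and 1 lower, with a median of 0.48. Ascl2, a helix-loop-helix factor of trophoblast progenitors, had signals of 229, 393.5 and 4081 on days 0, 1 and 2. Its 3 probe sets gave differences of 2.66 to 3.20. Gata2 went from 173.5 to 1170.1 (2.41; other set 1.30) and the placental homeobox gene Dlx3 from 114 to 647 (2.04; other set 1.07). Gata3, with signals of 54.7, 206 and 594 (1.30), was higher on each later day. Mbnl3, an RNA-binding protein gene placed on this list, went from 314 to 2710.3 (2.90; 3 sets from 1.80). Klf6 (1.23), the coactivator gene Cited1 (1.21) and Msx2 (1.06) were the other higher members, with Msx2 at 0.98 under a doubled constant and at 0.52 as the mean over its probe sets. Tfap2c went from 3460.1 to 6584 (0.92) and stayed within 2-fold.

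Of the 32 members 23 stayed within 2-fold, and over the whole list 21 lay above 0 and 11 below. Arid3a (0.997) and Cited2 (0.91) were just under 2-fold, while some regulators of the lineage were level or lower. Cdx2, the homeobox factor at the head of the lineage, had 151.5 at day 0, 856 at day 1 and 828 at day 2, a difference of −0.05. Its other, dimmer probe set went from 476.5 at day 1 to 338.7 at day 2 (−0.43). Hand1, a factor of trophoblast giant cells and other lineages, had 494, 1722 and 1262 (−0.43). Elf5, a factor of trophoblast stem cells, was dim throughout, with 1.80, 72.6 and 65.2 (−0.08). Eomes, the T-box factor of trophoblast stem cells, was at 381, 844 and 295 (−1.35), and its other probe set gave −1.43. At day 2 Cdx2 and Hand1 thus lay within 2-fold of their day 1 signals, and Eomes was under its day 0 signal.

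**Figure D2:**
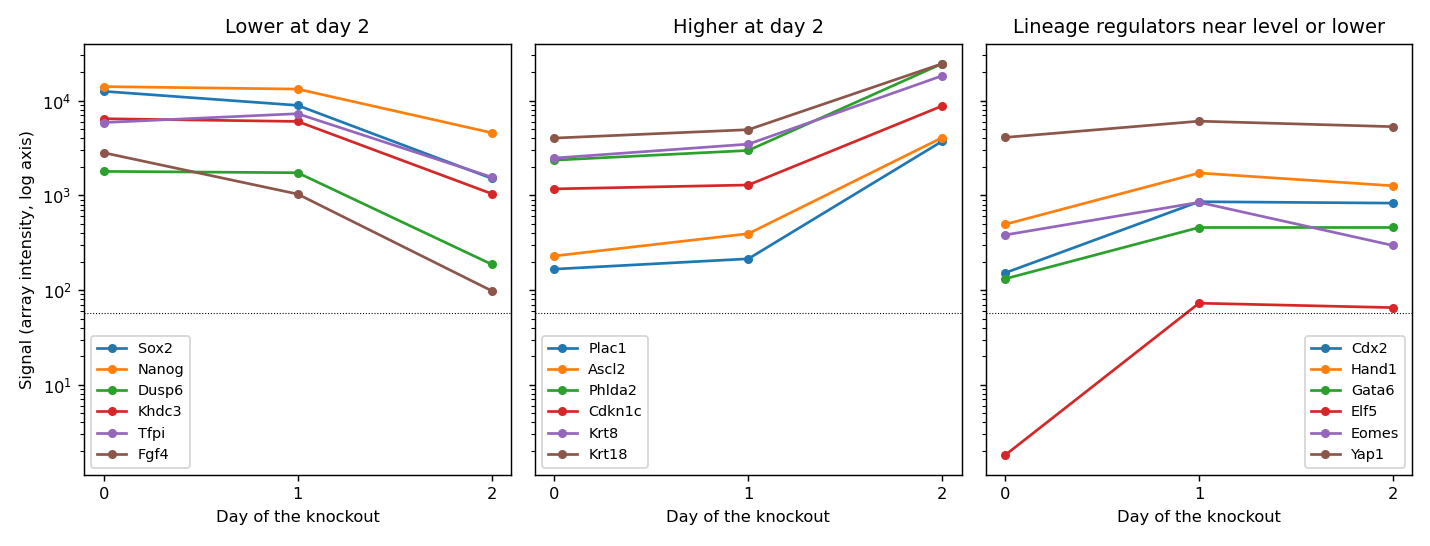
Signals of 18 named genes on each of the 3 arrays (vertical, log axis; horizontal, day of the knockout), 1 array a day and no error bars, with a dotted line at the constant of 57.6. Plac1, Ascl2, Phlda2, Cdkn1c, Krt8 and Krt18 climb less to day 1 (Ascl2 from 229 to 393.5) than from day 1 to day 2. Cdx2, Hand1 and Gata6 are higher at day 1 than at day 0 and within 2-fold after it, and Eomes ends at 295.

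Keratins, the intermediate filaments of epithelia, were among the brightest higher genes. Of 17 measured keratin and desmosome genes 7 were higher and 0 lower, with a median of 0.46 that was 0.01 when dim probe sets were kept. Krt8 had signals of 2474, 3475 and 18359 (2.38), and its 3 probe sets gave 2.34 to 2.49. Krt18, which pairs with Krt8 in simple epithelia such as trophectoderm, had 4026, 4938 and 24611 (2.30). Krt19 went from 680.3 to 2543 (1.82) and Krt7 from 509 to 1379 (1.34). The desmosome genes Perp (1.33), Dsc2 (1.27) and Pkp2 (1.14) were higher as well, with Dsc2 at 0.83 without the suffixed probe sets and Pkp2 at 0.95 as a mean over its sets. Krt42 was at −0.96.

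Genes of cell junctions moved in both directions. Among 27 measured tight junction and gap junction genes 2 were higher and 2 lower, 7.41% each, with a median of 0.30. Marveld2, the gene of tricellulin, went from 143 to 543 (1.58) and the claudin gene Cldn7 from 868 to 1919 (1.09). Gjc1, a connexin gene, went from 547 to 198 (−1.24) and the adhesion gene Jam2 from 319 to 113 (−1.14). Jam2 was at −0.93 with a doubled constant and at −0.66 as a mean over sets. Of 20 measured cadherin and epithelial identity genes 3 were higher (15%) and 0 lower, with a median of 0.12. They were the membrane protease gene Prss8 (740 to 2087, 1.43), the epithelial factor Elf3 (1.05) and the splicing regulator Esrp2 (1.02). Esrp2 was at 0.95 with a doubled constant, just under 2-fold after quantile normalisation and at 0.53 as a mean over sets.

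Contractile and actin-binding genes were mostly above 0. Of 31 measured members 9 were higher and 1 lower, 28 lay above 0, and the median was 0.73, or 0.43 without the suffixed probe sets. Tagln, the gene of transgelin, had 557, 455 and 1801 (1.86). The tropomyosin genes Tpm4 (2206 to 7658) and Tpm1 (2541 to 7474) were at 1.77 and 1.53. Csrp1, a LIM-domain actin partner, went from 1710 to 5049 (1.53), and both of its probe sets passed 2-fold. Zyx, the focal adhesion protein zyxin, was at 1.13, Ahnak at 1.42, Myl9 at 1.10, Acta2 at 1.04 and Cald1 at 1.01. Of these, Myl9 (0.92) and Acta2 (0.98) missed 2-fold with a doubled constant, and Ahnak (0.85) and Cald1 (0.80) did so as means over sets. Vim, the intermediate filament of mesenchymal and stem cells, was the lower member, at 12280 and 5842 (−1.06; 3 sets from −1.33 to −1.04). It was at −0.99 with equal array medians.

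Annexins, calcium-dependent membrane proteins, were higher in 4 of the 12 measured annexin and S100 genes, with 0 lower and a median of 0.06. Anxa2 went from 913 to 3665 (1.94), although a dimmer set gave 0.38, Anxa3 from 569 to 1741 (1.52), and Anxa4 from 492 to 1416 (1.42; 3 sets from 1.13). Anxa1 was at 1.08, and S100a10, the partner of Anxa2, at −0.82. Matrix genes showed less. Of 37 measured members 2 were higher (5.41%), Ccn1 (672 to 2026, 1.51) and Plat (1.10). The basement membrane gene Nid2 (1272 to 449, −1.39) was the 1 lower member (2.70%). Ccn1 was at 0.70 without the suffixed sets and Plat at 0.95 with a doubled constant. Of 13 integrin genes 0 were higher and 2 lower (15.4%), Itga1 (273 to 70.8, −1.36) and Itgb7 (−1.02). Itgb7, whose day 2 signal of 18.8 is under the constant, was at −0.66 with a doubled constant.

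Imprinted genes, expressed from the allele of 1 parent, gave 5 higher and 0 lower of 41 measured, with a median of 0.22 and 33 members above 0. The 5 were Ascl2, Phlda2, Cdkn1c, Peg10 and Igf2, which are all described above among placental genes or trophectoderm factors. Phlda2, Cdkn1c, Ascl2 and Igf2 are known neighbours in an imprinted region of mouse chromosome 7. Other genes of that region stayed within 2-fold, among them Kcnq1ot1 (0.44), Cd81 (0.37), Tssc4 (0.34), Slc22a18 (0.22), Nap1l4 (0.17) and Kcnq1 (0.00).

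**Figure D3:**
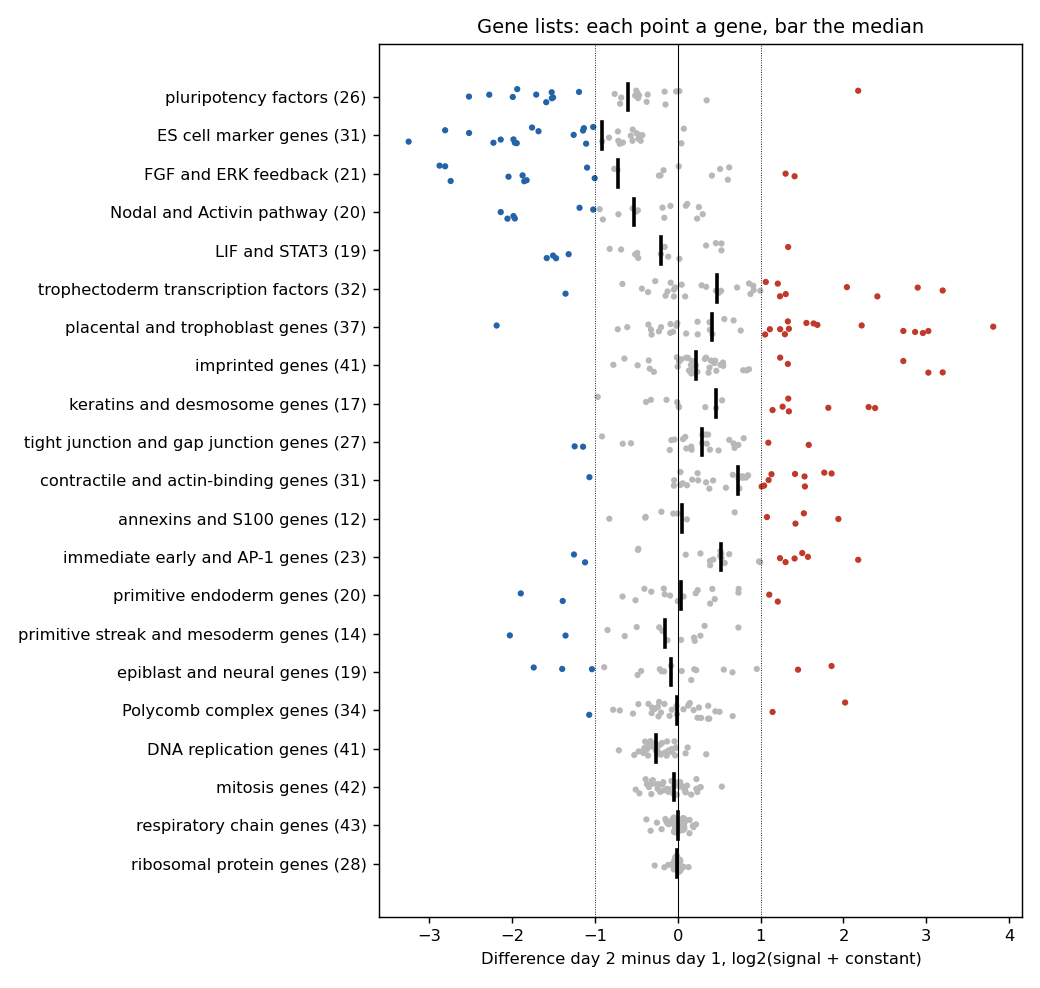
Differences of day 2 minus day 1 (horizontal, log2 of signal plus constant) for the measured members of 21 gene lists, 1 point a gene, black bars at the medians and dotted lines at 2-fold; red is higher, blue lower, and lists share members. Medians run from −0.91 (ES cell marker genes) to 0.73 (contractile and actin-binding genes), and ribosomal protein genes cluster at −0.01.

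Factors of pluripotency were mostly below 0. Of 26 measured pluripotency factors 10 were lower and 1 higher, with a median of −0.60. The other 15 stayed within 2-fold, among them Sall4 (−0.48), Lin28a (−0.37), Tbx3 (−0.16) and Klf5 (0.02). Sox2, the DNA-binding partner of Oct3/4, had a signal of 12563 at day 0 that stood at 8921 a day later and at 1510.1 on day 2, a difference of −2.52. Nanog, a homeobox factor that sustains self-renewal, had 14073, 13256 and 4585 (−1.52). Both factors had most of their day 0 signal left at day 1, when Pou5f1 was already at 40.8, and were lower at day 2. Klf4, a factor downstream of LIF, had 5587, 4134 and 1421 (−1.50; other set −1.26), and the nuclear receptor Nr5a2 had 1895, 1472 and 411.0 (−1.71; 3 sets up to −0.83).

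Esrrb, an orphan nuclear receptor of naive pluripotency, went from 4927 to 2169 and then to 403 (−2.27), and its 3 probe sets gave −2.27 to −1.67. Klf2 had 5034, 2232 and 541 (−1.94), and Zfp42, the marker Rex1, had 18655, 9067 and 2982 (−1.59). Prdm14 reached 43.5 at day 2 from 344 (−1.99), and Nr0b1, already at 151 from 2759, reached 15.3 (−1.52). The day 2 signals of Prdm14 and Nr0b1 are under the constant, which limits their differences. Utf1 was at −1.19, and at −0.998 as a mean over its sets. Myc, a growth regulator and a target of LIF signalling, was the higher member, with 1165, 341 and 1745 (2.18), lowest at day 1.

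ES cell marker genes gave 15 lower and 0 higher of 31 measured, with a median of −0.91. Morc1, an ATPase gene of transposon silencing in germ cells, had 5303, 1713 and 129 (−3.25), close to the lowest difference of any measured gene. Upp1, the uridine phosphorylase gene, had 13235, 4412 and 724 (−2.52). Ooep, of the maternal subcortical complex, had 4027, 1028 and 175 (−2.22), and its partner in that complex, Khdc3, had 6447, 6033 and 1041 (−2.47). Tet1, the dioxygenase that oxidises methylated cytosine, had 6251, 5373 and 1638 (−1.68), but its 4 sets ran from −2.11 to 0.10. Dppa5a, among the brightest genes, had 35754, 28533 and 11927 (−1.25). Pecam1 (626 to 145, −1.76), the Ras-like gene Eras (1584 to 692, −1.13) and Trh (227 to 16.5, −1.94) were lower too. Sox15 (−1.10) was at −0.92 with a doubled constant.

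In FGF signalling and its ERK feedback, a ligand, several target genes and several inhibitors were lower. Of 21 measured members 9 were lower and 2 higher, with a median of −0.72, or −0.43 when dim probe sets were kept. The ligand Fgf4 had signals of 2819, 1032 and 98.2 on days 0, 1 and 2 (−2.81), and its 3 probe sets gave −2.95 to −1.81. The ERK phosphatase gene Dusp6 had 1791 at day 0, 1733 at day 1 and 187 at day 2 (−2.87). At day 1 Dusp6 was close to its day 0 signal while Fgf4 was already under its own, and at day 2 both were far lower. The transcription factor Etv5 had 6975, 2719.5 and 701.5 (−1.87; 3 sets from −2.00 to −1.34), and Etv4 had 582, 420.3 and 14 (−2.74), ending under the constant.

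Inhibitors of the pathway gave both lower and level members. Spry4 had 1478, 1251 and 260.4 (−2.04; 4 sets from −2.63 to −1.26), and Spry2 had 2544, 2076 and 546 (−1.82; other set −0.36). Spred1 went from 1182 to 286 (−1.85; 6 sets up to −0.68). Spry1 (−0.76), Dusp4 (−0.72) and Dusp5 (0.01) stayed within 2-fold, as did the ERK-responsive genes Egr1 (0.62), Phlda1 (0.61) and Ier3 (0.51). Il17rd (−1.09) and Spred2 (−1.0) were close to the 2-fold line. Il17rd was at −0.93 and Spred2 at −0.97 with a doubled constant, at −0.55 and −0.71 as means over sets, and Spred2 at −0.99 and −0.93 under the scalings to ribosomal protein genes and to equal medians. The higher members were the AP-1 genes Fos (1.30) and Fosl1 (6.80 to 114, 1.41, or 0.91 with a doubled constant). Ccnd1, a D-type cyclin gene that is not on this list, went from 1361 to 346 (−1.82), and its 3 sets reached −2.70. A link to FGF signalling was not tested.

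Nodal signalling, which maintains the epiblast and patterns the embryo, gave 6 lower and 0 higher of 20 measured genes, with a median of −0.52. Of the lower genes, Tdgf1, Lefty1, Gdf3 and Nodal are also counted among the lower ES cell marker genes above. The co-receptor gene Tdgf1 had 16079, 1969.8 and 404 (−2.14), so that most of its loss of linear signal, though not of log2 signal to the same degree, lay before day 1. The same held for the inhibitor Lefty1, with 2821, 229 and 15.9 (−1.96; under the constant at day 2), and for the ligands Gdf3, with 2816, 609 and 111 (−1.98), and Nodal, with 2208, 406 and 171 (−1.02). Nodal was at −0.86 with a doubled constant, −0.96 with equal medians, −0.998 after quantile normalisation and −0.84 as a mean over sets. Inhbb, an activin subunit gene, went from 299 to 28.3 (−2.05), but its other set gave 0.55 and the mean of both was −0.75. Tgif1, a corepressor of SMAD signalling, had 4220, 4183 and 1809 (−1.18).

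The LIF pathway, which acts through STAT3 in cultured ES cells, gave 4 lower and 1 higher of 19 measured genes, with a median of −0.20. The receptor gene Lifr had 1498, 721 and 203 (−1.58; 3 sets up to −0.56). Its feedback inhibitors Socs2 (1066 to 349, −1.47) and Socs3 (4231 to 1666, −1.32) were lower beside Klf4. Socs2 was at −0.72 as a mean over its 5 sets, and Socs3 at −0.70 without the suffixed sets. Cebpb, a leucine zipper factor, was higher, from 1294 to 3348 (1.33), as its other set was (1.30).

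BMP and Wnt genes were mixed. Of 22 BMP pathway and Id genes 4 were higher (18.2%) and 2 lower (9.09%), with a median of 0.27. Gata2, Dlx3 and Msx2 are trophectoderm factors given above, and Id3, an inhibitor of helix-loop-helix factors, had 1267, 488 and 1312 (1.33). The ligand Bmp4 had 4526, 1913 and 427 (−2.02), and Smad6, an inhibitor in the pathway, had 947, 2844 and 811 (−1.74). Of 24 Wnt pathway genes 2 were higher (8.33%), Myc and the secreted inhibitor Dkk1 (65.8, 103.7 and 893; 2.56). The 1 lower gene was Ccnd1 (4.17%), where over all measured genes 2.14% were higher and 2.54% lower. Of 22 Hippo pathway genes and YAP targets only Ccn1 passed 2-fold (4.55% higher, 0 lower). Their median was 0.28, Wwtr1 (TAZ) was at 0.97 and Yap1 at −0.19. In the Wnt list the median of −0.02 changed sign under several alternatives.

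Immediate early and AP-1 genes, which respond within minutes to growth factors and stress, gave 6 higher and 2 lower of 23 measured, with a median of 0.53. Jun went from 662 to 1983 (1.5; other set 0.68) and Atf3 from 64.9 to 306 (1.57). Fos, Fosl1, Klf6 and Myc are given above. The lower members were Ier2 (1996 to 805, −1.25) and the orphan receptor gene Nr4a1 (1456 to 640, −1.12).

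Genes of other lineages showed scattered differences. Of 20 measured primitive endoderm genes 2 were higher (10%), Cited1 and Plat. The 2 lower (10%) were Amn (673 to 139, −1.89) and Apoe (2570 to 947, −1.39). Gata6, the factor of primitive endoderm, had 131, 457 and 458 (0.00), and Gata4 was below the constant on average. Of 14 primitive streak and mesoderm genes 0 were higher and 2, Bmp4 and Eomes, lower (14.3%), and 18 more had a mean signal under the constant. Of 19 epiblast and neural genes 2 were higher (10.5%) and 3 lower (15.8%). The homeobox genes Irx3 (163, 328 and 1338; 1.86) and Irx2 (120 to 428, 1.45) were higher, and Otx2, a factor of epiblast and forebrain, had 1717, 509 and 112 (−1.74). Neurog1 (114 to 7.70, −1.39) and Sox11 (−1.03) were under 2-fold in at least 1 alternative, Neurog1 at −0.90 and Sox11 at −0.86 with a doubled constant, and Sox11 at −0.98, −0.34 and −0.25 with equal medians, as a mean over sets and without the suffixed sets. Of 10 measured Hox genes Hoxc9 (35.9 to 243, 1.69) and Hoxc8 (45.0 to 173, 1.17, or 0.85 with a doubled constant) were higher (20%). In this list 0 were lower, and 23 more had a mean signal under the constant.

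Of 34 Polycomb genes, whose products modify histones and repress transcription, 2 were higher (5.88%) and 1 lower (2.94%), and the median was −0.01, which changed sign under several alternatives. Bcor, a corepressor of a variant Polycomb repressive complex 1, had 671, 1034.7 and 4374 (2.02), and its 3 probe sets gave 2.02 to 2.33. Pcgf5, a subunit of another variant complex, had 1272, 2294.5 and 5144.5 (1.15; 3 sets from 0.77), and Pcgf2 went from 727 to 317 (−1.07, or −0.96 with a doubled constant). Of 16 DNA methylation genes, Tet1 and the methyltransferase gene Dnmt3a (1138 to 449, −1.24) were lower (12.5%) and Gadd45b (1.09) higher (6.25%), with a median of −0.21. Dnmt3a was at −0.71 and Gadd45b at 0.36 as means over sets.

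Genes of growth and the cell cycle stayed within 2-fold almost throughout. At the shares over all genes, 2.14% higher and 2.54% lower, lists of this size would also hold few or no members past 2-fold. Of 41 DNA replication genes 0 passed 2-fold in either direction, yet 38 were at or below 0, with a median of −0.26 and Pold2 lowest at −0.71. Of 42 mitosis genes 0 passed either, from Ncaph at −0.51 to Foxm1 at 0.53. Among 24 G1 cyclins and CDK inhibitors only Cdkn1c and Ccnd1 passed 2-fold, in opposite directions. Ribosomal protein genes (28, median −0.01), respiratory chain genes (43, median 0.01), lysosome genes (26, median 0.14) and ribosome biogenesis genes (31, median −0.12) gave 0 members past 2-fold in either direction. Of 34 p53 and apoptosis genes Perp was higher and Bcl2l11, a pro-apoptotic BH3 gene, lower, 2.94% each and near the shares over all genes. Bcl2l11 went from 2826 to 1125 (−1.29), with all 5 of its sets between −1.33 and −1.01.

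Of 37 glycolysis and hypoxia genes 1 was higher (2.70%) and 3 lower (8.11%), with a median of 0.00 whose sign depended on the alternative. Ndrg1, a differentiation and hypoxia gene, went from 687 to 3212.5 (2.13), and its 5 sets gave 1.92 to 2.81. Pdk1, the kinase that inhibits pyruvate dehydrogenase, went from 4362 to 960.3 (−2.12; 3 sets up to −1.77), Pfkp from 3937 to 1313 (−1.54) and Hk1 from 4310 to 2058 (−1.05). Pfkp was at −0.99 as a mean over its sets and Hk1 at −0.97 with equal medians. Pparg, a nuclear receptor of fat cells that the placenta also needs, went from 4.40 at day 1 to 337 at day 2 (2.67), from a signal far under the constant. Ppard (259 to 687, 1.23) and the lipase gene Lpl (504 to 1535, 1.5) were higher, and 27 lipid handling genes gave 3 higher (11.1%) and 1 lower (3.70%), with a median of 0.03. Of 29 sterol synthesis genes only Pmvk passed 2-fold, at −1.0 (3.45% lower, 0 higher). It was at −0.97 with a doubled constant, −0.99 with equal ribosomal protein medians and −0.93 with equal array medians.

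MHC class I and interferon genes gave 3 higher and 3 lower of 19, 15.8% each. B2m, the class I light chain, went from 676 to 1572 (1.15), H2-K1 from 743 to 1672 (1.11) and H2-D1 from 1085 to 2361 (1.08). The heavy chain genes have near-identical copies that probe sets can share. H2-K1 was at 0.63 as a mean over sets, and H2-D1 at 0.87 as a mean and 0.21 without the suffixed sets. Ifitm3 (1626 to 650.5, −1.25), Ifitm1 (6857 to 3009, −1.17) and Oasl2 (−1.09, or −0.87 with a doubled constant) were lower. In the stress lists Hspb8 (634 to 1515, 1.18) was the 1 higher of 28 heat shock genes (3.57%), with 0 lower. Hspa1b was at 0.91 by its brightest set and at 1.15 and 1.54 by its other sets. Among 31 ATF4 targets Chac1 (420 to 136, −1.30) was lower (3.23%), and Atf3 and Cebpb, given above, were higher (6.45%). Of 24 genes of the 2-cell stage and germ cells, Usp17la (1.29) was higher and Dmrt1 (3671 to 1548, −1.22) lower, 4.17% each.

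Some of the largest single differences belonged to none of these lists. Fgfbp1, the carrier that releases FGFs from the matrix, had 284, 173.5 and 1862 (3.05), and the calcium-binding protein gene Tesc 128, 67.5 and 700.3 (2.60; other set 1.32). Dusp16, a phosphatase gene of stress kinases, was at 2.20, but at 0.51 by its other set. Vgll1, a cofactor of TEAD factors, appeared from 14 to 239 (2.05), and Vgll3 had 236, 379 and 1594 (1.92; 3 sets from 1.21). Nxf7, of the RNA export factor family, went from 43.0 to 685 (2.88). Creb3 went from 725 to 1815 (1.26), with its 3 sets between 1.16 and 1.26.

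Among the lower genes outside the lists, Rasgrp2, an exchange factor for Rap and Ras, had 1728, 1241 and 76.9 (−3.27), the lowest difference of a gene with both signals above the constant. Of its 4 probe sets 3 lay between −3.27 and −1.46 and the other gave 0.18. Ceacam1, a cell adhesion receptor gene, had 647, 708 and 82.7 (−2.45), with 6 sets that all lay at −1.53 or lower. Ina, the neuronal intermediate filament α-internexin, had 1216, 1272 and 194 (−2.40; 3 sets up to −2.12), and the tubulin-binding Stmn2 had 9236, 2165 and 304 (−2.62; other set −1.28). Apobec3, a cytidine deaminase gene of retrovirus restriction, had 2212.5, 1554 and 278 (−2.26). The semaphorin co-receptor gene Nrp2 had 445, 1377 and 289 (−2.05; 4 sets up to −1.25). Mymx, the muscle fusion peptide gene, had 2828, 661 and 80.3 (−2.38), and the secreted phospholipase gene Pla2g1b had 2241, 1122 and 197 (−2.21).

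**Figure D4:**
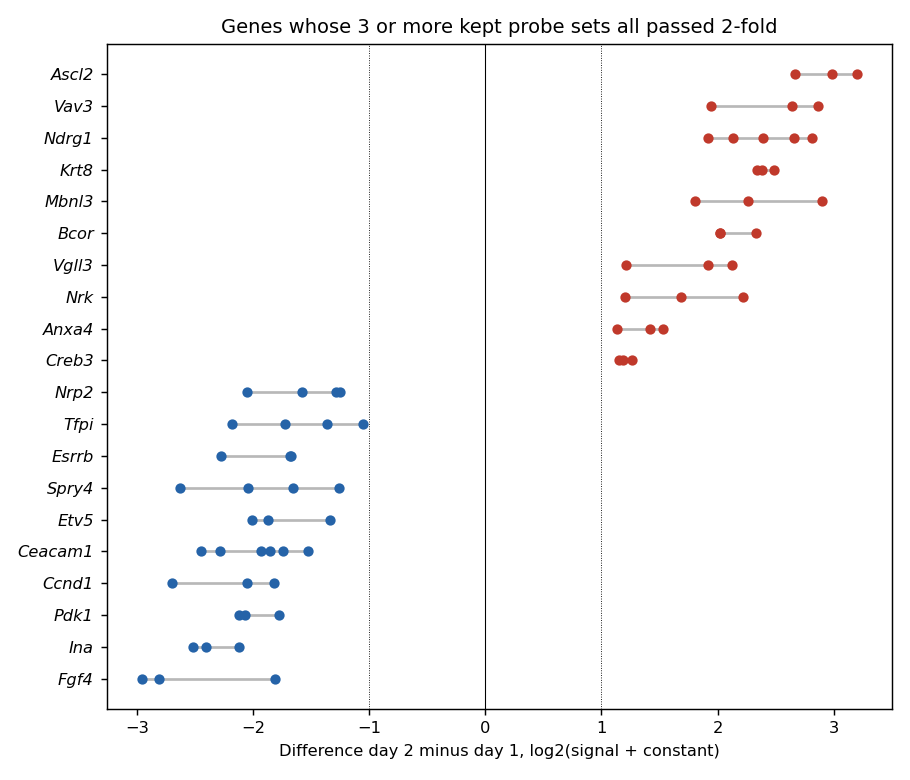
Differences of day 2 minus day 1 (horizontal, log2 of signal plus constant) for every kept probe set of genes with 3 or more sets that all passed 2-fold, up to 10 each way by the size of the median difference, 1 point a probe set, grey lines over their range and dotted lines at 2-fold. The sets of Krt8 lie within 2.34 to 2.49 and those of Creb3 within 1.16 to 1.26, while those of Fgf4 spread from −2.95 to −1.81.

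The X chromosome held a larger share of higher genes than any autosome, a count made after the values had been seen. Of 406 measured X-linked genes 20 were higher (4.93%) and 9 lower (2.22%), with a median of 0.06. Of 12255 genes on the 19 autosomes 251 were higher (2.05%) and 313 lower (2.55%), and single autosomes ran from 1.19% to 3.24% higher. Plac1, Ldoc1, Mbnl3, Nxf7, Nrk, Vgll1, Bcor, Rhox6, Rhox9, Cited1 and Fthl17a, all given above, were among the 20. The others included the nucleosome-binding Hmgn5 (565 to 2449, 2.01), Rbmx (231.0 to 811, 1.59), the Mediator subunit Med14 (890.2 to 2128, 1.20) and Rlim (2178 to 4533, 1.04), a ubiquitin ligase that acts in X inactivation. Xist, the RNA that silences an X chromosome in female cells, had 887, 591 and 459.5 (−0.33), and Jpx, a gene beside it, went from 18.1 to 157 (1.5). The difference between X and autosomes was not tested.

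**Figure D5:**
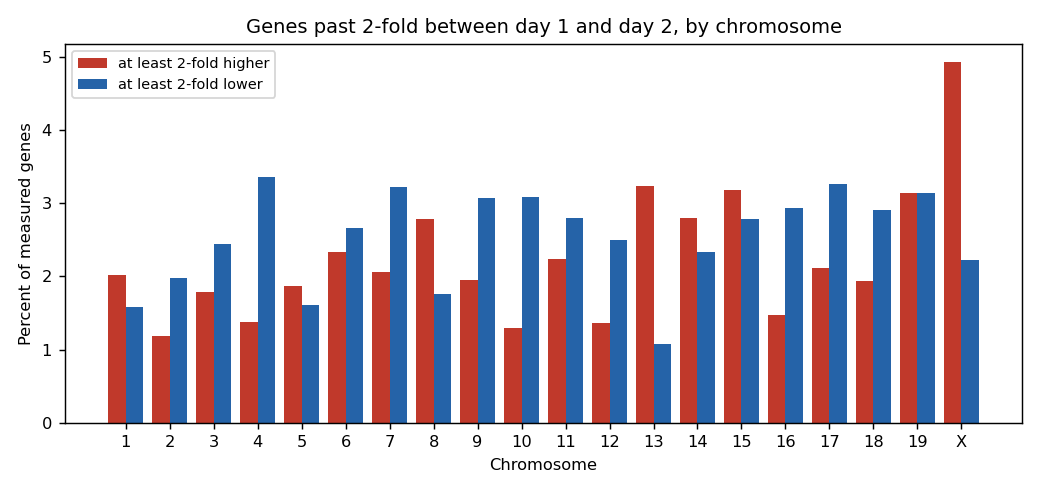
Percent of measured genes at least 2-fold higher (red bars) and at least 2-fold lower (blue bars) at day 2 than at day 1 on each mouse chromosome, with no error bars since there is 1 array a day. The X chromosome has 4.93% higher genes, and the autosomes run from 1.19% to 3.24%.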

How the data were processed

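Total RNA was labelled with biotin by a one-cycle kit and hybridised to Affymetrix arrays, per the labels' protocols, 1 array a day. Signals were made with MAS5, per the submitters' processing notes, in a version not given in the sources used here. The deposited intensities are linear signals, with 1 value a probe set. They share a 2% trimmed mean of 498 at day 1 and at day 2, so the scaling to it applied here changed little. The day 2 column lists 45101 probe sets in another number format, 64 of them controls that were left out. Nothing used here says how that array was exported, so an export or processing difference cannot be told apart from the day. Detection calls were not used here.

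From these intensities differences were computed as log2(signal + constant), day 2 minus day 1, with a constant of 57.6, the 40th percentile of the signals of both days. Probe sets with a mean signal over both days at or above it were kept (26885, or 59.7%). The platform annotation names 1 gene for 34945 probe sets, several for 932, which named none here, and 9160 are unlisted. By Entrez identifier 34741 matched the RefSeq table of GRCm38.p6, and 0 symbols changed. Each gene takes its brightest kept probe set, and 5890 of the 12683 genes have several.

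The genes named were drawn mainly from a set selected by rule, and some members of that set are not named above. The set held the 20 highest and lowest with both signals at or above the constant, and 10 each way with 1 signal under it. It also held members of 43 gene lists past 2-fold, or else up to 4 with the largest differences. Lineage factors fixed by name and genes with 3 or more kept sets all past 2-fold completed it. The genes, lists and comparison were chosen with earlier results of these data known. Lists share members. X-linked genes were added after their values were seen. Counting was checked on simulated data. Alternatives varied the constant, the filter, the scaling and the choice of probe sets. Analyses ran in Python 3.11.15 with numpy 2.4.6 and pandas 2.3.3.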

Additional observations from a re-analysis of the deposited data

How the results depend on the processing

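Across 10 alternatives, the counts of 271 higher and 322 lower genes moved by over 1.5 times with a doubled constant (157 and 179) and, for lower genes, with the filter at the 60th percentile (212, over 9533 genes instead of 12683). That filter gave 187 higher genes. Under the other alternatives the counts ran from 227 to 356 higher and from 279 to 453 lower. Scaling to equal medians moved the median of all genes by 0.07, and the share of higher genes among those past 2-fold from 45.7% to 53.5%. The naming rule selected 175 genes past 2-fold, not all of which are named above. Of these, 134 stayed past it under each alternative that measured them, and 0 changed sign. In at least 1 alternative 41 fell under it, most often with the doubled constant (22) or the mean over probe sets (18). Medians of lists near 0 changed sign under at least 1 alternative, among them primitive endoderm, matrix, Wnt, Polycomb, mitosis, glycolysis and ribosomal protein genes, and no direction is given for them. No paired analysis was possible because each day has 1 array. No replicate could be left out for the same reason, and precision is limited by having 1 array a day.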

Other observations

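Several genes of this step had their lowest signal of the series at day 1. Myc is 1 case given above, and Perp (645, 300 and 844), Id3 (1267, 488 and 1312), Lgals3 (2788, 804 and 2626) and Atf3 (130, 64.9 and 306) are others. Other genes had their highest signal at day 1. Smad6 was at 947, 2844 and 811, Dmrt1 at 1302, 3671 and 1548, Hk1 at 1711, 4310 and 2058, and Nrp2 at 445, 1377 and 289. The day 1 array enters both steps for these genes, and these genes were picked after their values were seen.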
